A study of Rattus norvegicus with 2 samples.

Results

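Stk3, Stk4, Lats1, Sav1, Mob1a, Mob1b, Nf2, Frmd6, Wwc1 and Taok1 encode kinases of the Hippo pathway, their cofactors and proteins that act upstream of them. They were taken by symbol from a table of 21224 gene rows, and all 10 symbols were found, each on 1 row. RNA sequencing was done on rat cortical neurons from embryonic day 18. One group, siNC, was given a control small interfering RNA, and the other, siYthdf3, one against Ythdf3, which encodes a reader of the m6A mark on messenger RNA. Each group was 1 library, so the differences below were not tested between conditions and stand without p-values.

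The Hippo pathway is a kinase cascade that restrains growth. The kinases MST1 and MST2 (Stk4 and Stk3), with the scaffold SAV1, phosphorylate LATS kinases and their MOB1 cofactors. Active LATS phosphorylates the coactivators YAP and TAZ, which then stay in the cytoplasm or are degraded, and in the developing brain YAP and TAZ are known mainly from dividing progenitors and glia. Merlin (Nf2), KIBRA (Wwc1) and willin (Frmd6) sit upstream at the cell membrane, and TAO kinases (Taok1) can switch on the MST kinases.

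The levels are FPKM, reads per length of the gene and per depth of the library. Comparisons between genes rest on the deposited gene lengths, for which no source used here names the annotation. Counting intervals do not cover errors in those lengths. The siNC library held 15392218 assigned reads and the siYthdf3 library 22586543. A ratio is the FPKM value in siYthdf3 divided by that in siNC, with an exact 95% interval that covers counting error only. The interval takes each read as a separate count. No source used here says whether copies of a read were collapsed, and if they were not, it is too narrow. A log2 ratio is that of both values after adding 0.5 FPKM, which understates differences of low genes. The 1.5-fold and 2-fold counts below go by the log2 ratio. Gene positions are as in the deposited table, for which no source used here names a genome build. The targeted gene, Ythdf3, was at 9.38 FPKM in siNC and 6.93 FPKM in siYthdf3. Its ratio was 0.739 (interval 0.675 to 0.809) and its log2 ratio -0.41, short of 1.5-fold. In the siNC library the neuronal markers Tubb3 and Stmn2 were at 260 and 248 FPKM, and Fabp7 and Vim, markers of radial glia, at 1105 and 708 FPKM, so the RNA was not that of neurons alone.

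Of the 10 genes, 1 was at least 1.5-fold apart between the libraries, and this was Frmd6, which was higher in siYthdf3. It was also the 1 gene at least 2-fold apart. None of the 10 was at least 1.5-fold lower. Among the 13172 genes whose mean reached 1 FPKM, 2.41% were at least 1.5-fold higher and 3.95% at least 1.5-fold lower, and 0.706% were at least 2-fold higher and 0.896% at least 2-fold lower. The median log2 ratio of the 10 genes was 0.10, and 6 were above 0 and 4 below. Over all 13172 genes the median was -0.01, with quartiles of -0.17 and 0.14.

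Counting intervals lay above 1 for 3 genes (Stk4, Frmd6 and Taok1), below 1 for 3 (Sav1, Nf2 and Wwc1) and included 1 for 4 (Stk3, Lats1, Mob1a and Mob1b). Over all genes 20.0% of intervals lay above 1 and 22.2% below. Such intervals hold no differences between cultures or library preparations.

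**Figure D1:**
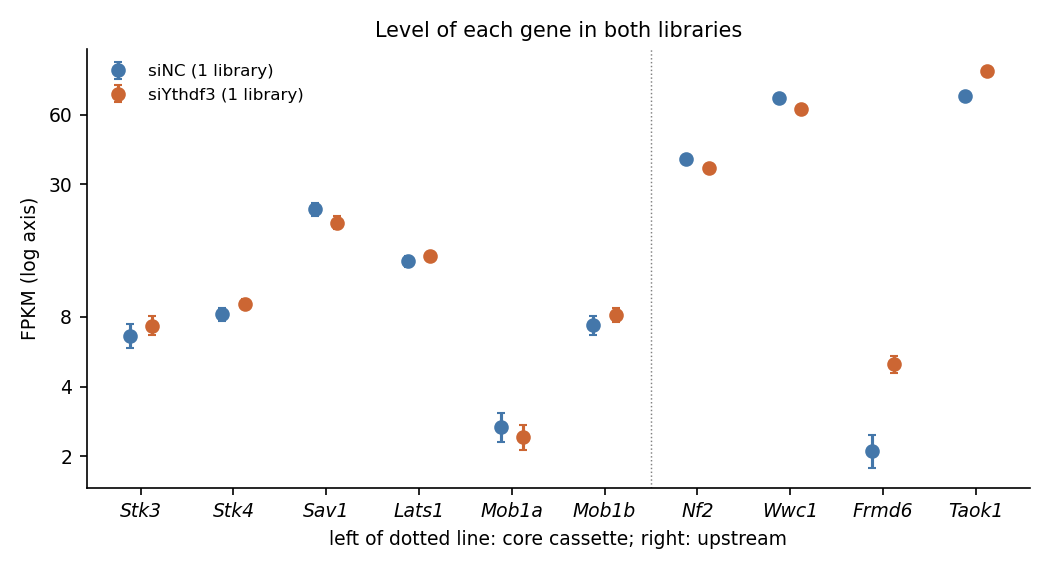
FPKM of each of the 10 genes (log axis) in the siNC and the siYthdf3 library, 1 library each; bars are exact 95% counting intervals. Taok1 and Wwc1 were the most abundant and Mob1a and Frmd6 the least, and only for Frmd6 do the points stand more than 1.5-fold apart.

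The 10 genes spanned a wide range of levels. In siNC they ran from 2.10 FPKM for Frmd6 to 72.1 FPKM for Taok1, a 34.4-fold span, and in siYthdf3 from 2.41 FPKM for Mob1a to 92.5 FPKM for Taok1. In siNC the order was Taok1, Wwc1, Nf2, Sav1, Lats1, Stk4, Mob1b, Stk3, Mob1a and Frmd6. Counting intervals of neighbours in that order overlapped for Taok1 and Wwc1, for Stk4 and Mob1b, for Mob1b and Stk3, and for Mob1a and Frmd6. In siYthdf3 the order was the same except that Frmd6 stood above Mob1a, and the interval of Taok1 no longer overlapped that of Wwc1. The upstream genes Taok1, itself a kinase gene, Wwc1 and Nf2 thus stood above Stk3, Stk4, Lats1, Sav1, Mob1a and Mob1b in both libraries. The upstream gene Frmd6 was near the bottom in both. The 4 genes at 20 FPKM or more in both libraries were Taok1, Wwc1, Nf2 and the scaffold gene Sav1.

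Stk4 (ENSRNOG00000013529, chromosome 3, 152745681 to 152827744, plus strand) encodes MST1. It was at 8.23 FPKM in siNC, from 898 reads, and at 9.11 FPKM in siYthdf3, from 1459 reads, a ratio of 1.11 (interval 1.02 to 1.20). Its paralogue Stk3 (ENSRNOG00000011278, chromosome 7, 66052345 to 66323233, minus strand) encodes MST2. It was at 6.65 FPKM in siNC and 7.34 FPKM in siYthdf3, on 282 and 457 reads, which is a ratio of 1.10 (interval 0.950 to 1.29). Both MST genes were slightly higher in siYthdf3 and by about the same factor, and their balance did not differ beyond counting error. Stk4 made up 55.3% of their summed FPKM in siNC (interval 52.0% to 58.7%) and 55.4% in siYthdf3 (interval 52.8% to 58.0%). The Stk4 row overlaps that of Tomm34, on the other strand, by 693 bases, and Tomm34 was at -0.24 on the log2 scale.

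Sav1 (ENSRNOG00000005264, chromosome 6, 88478539 to 88499968, minus strand), the scaffold that holds MST kinases to LATS, was at 23.4 FPKM in siNC and 20.5 FPKM in siYthdf3. On 817 and 1052 reads the ratio was 0.877 (interval 0.800 to 0.963), and its log2 ratio of -0.18 was the lowest of the 10. It lay at percentile 23.2 of all genes, just inside the lowest quartile. In the siNC library the Sav1 transcript was more abundant than that of each kinase it binds, and this was also so in siYthdf3.

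Lats1 (ENSRNOG00000014916, chromosome 1, 2160411 to 2193640, plus strand) encodes the kinase that phosphorylates YAP and TAZ directly. It was at 13.9 FPKM in siNC and 14.7 FPKM in siYthdf3, on 1518 and 2350 reads, with a ratio of 1.05 (interval 0.989 to 1.13). The other LATS gene, Lats2, was at 16.0 and 17.0 FPKM, a ratio of 1.07 (interval 0.991 to 1.15). The intervals of both LATS genes include 1. Lats2 made up 53.4% of the pair in siNC (interval 51.5% to 55.3%) and 53.7% in siYthdf3 (interval 52.1% to 55.2%).

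Mob1b (ENSRNOG00000010996, chromosome 14, 19332459 to 19365845, minus strand) and Mob1a (ENSRNOG00000059474, chromosome 4, 115831551 to 115848561, plus strand) encode the LATS cofactors. Mob1b was at 7.37 FPKM in siNC and 8.17 FPKM in siYthdf3, a ratio of 1.11 (interval 0.986 to 1.25). Mob1a was at 2.67 and 2.41 FPKM, on 184 and 244 reads, with a ratio of 0.904 (interval 0.743 to 1.10). Mob1b was the main MOB1 transcript in both libraries. Its share of the summed FPKM was 73.4% in siNC (interval 69.9% to 76.7%) and 77.2% in siYthdf3 (interval 74.5% to 79.7%), and these intervals overlap. The pair is closely related, and no source used here says how reads that match both were counted, so the split is uncertain. Summed over the 6 genes of the core cassette (Stk3, Stk4, Sav1, Lats1, Mob1a and Mob1b) the level was 62.2 FPKM in each library, a ratio of 1.00.

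Of the 4 upstream genes, Nf2 and Wwc1 were slightly lower and Frmd6 and Taok1 higher in siYthdf3. Nf2 (ENSRNOG00000007948, chromosome 14, 79627399 to 79710666, minus strand) encodes merlin, a FERM domain protein and tumour suppressor that recruits LATS to the membrane. It was at 38.5 FPKM in siNC and 35.3 FPKM in siYthdf3, a ratio of 0.917 (interval 0.876 to 0.959). Wwc1 (ENSRNOG00000008065, chromosome 10, 20300833 to 20454497, minus strand) encodes KIBRA, a WW domain protein also known for a role at synapses. It was at 71.2 and 63.3 FPKM, a ratio of 0.889 (interval 0.854 to 0.925). With 3291 and 4427 reads for Nf2 and 4358 and 5685 for Wwc1 the counting intervals are narrow. Their log2 ratios of -0.12 and -0.17 lay at percentiles 30.8 and 25.0 of all genes. Wwc1 made up 83.8% of the summed FPKM of Wwc1 and its paralogue Wwc2 in siNC and 83.8% in siYthdf3.

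Taok1 (ENSRNOG00000015692, chromosome 10, 62381404 to 62465766, minus strand) encodes a kinase that phosphorylates MST kinases and also acts on microtubules in neurons. It was at 72.1 FPKM in siNC, from 4317 reads, and at 92.5 FPKM in siYthdf3, from 8121 reads. The ratio was 1.28 (interval 1.24 to 1.33) and the log2 ratio 0.36, at percentile 92.8 of all genes, short of 1.5-fold. Its relatives differed less. Taok3 was at 77.4 and 87.1 FPKM, a ratio of 1.13 (interval 1.08 to 1.18), and Taok2 at 48.0 and 46.6 FPKM, a ratio of 0.970 (interval 0.935 to 1.01). Taok3 had the highest level of the 3 TAO kinase genes in siNC and Taok1 in siYthdf3. Of the summed FPKM of Taok1 and Taok3, Taok1 held 48.3% in siNC (interval 47.1% to 49.4%) and 51.5% in siYthdf3 (interval 50.6% to 52.4%). The share of Taok1 in the summed FPKM of the 3 was 36.5% in siNC and 40.9% in siYthdf3, and the family sum went from 197 to 226 FPKM.

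**Figure D2:**
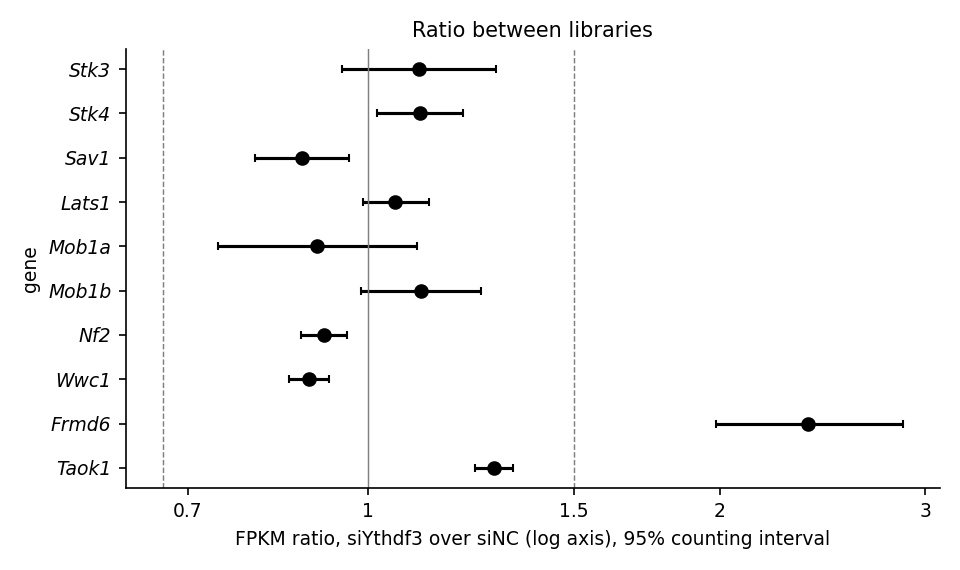
FPKM ratio of siYthdf3 over siNC (log axis) for each of the 10 genes, with exact 95% counting intervals; the solid line marks 1 and the dashed lines a 1.5-fold difference. Frmd6 lies at 2.38, Taok1 at 1.28 and the other 8 genes between 0.877 and 1.11.

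Frmd6 (ENSRNOG00000007329, chromosome 6, 89346035 to 89419579, plus strand) encodes willin, a FERM domain protein at cell junctions that has been linked to activation of the pathway. It was at 2.10 FPKM in siNC, from 152 reads, and at 5.00 FPKM in siYthdf3, from 531 reads. The siYthdf3 value is the higher one by a ratio of 2.38 (interval 1.98 to 2.87), and the counting intervals of the 2 levels do not overlap. The log2 ratio was 1.08, or 0.95 with a pseudocount of 1 FPKM in place of 0.5, which is short of 2-fold. Counted from the highest log2 ratio, Frmd6 was number 70 of 13172 genes. Ratios of genes with few reads scatter more, so Frmd6 was also set beside genes of like depth. Of 1918 genes with 500 to 900 reads over both libraries (Frmd6 had 683), 3 were at least 2-fold higher in siYthdf3 and 19, or 0.991%, at least 1.5-fold higher, Frmd6 among them.

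**Figure D3:**
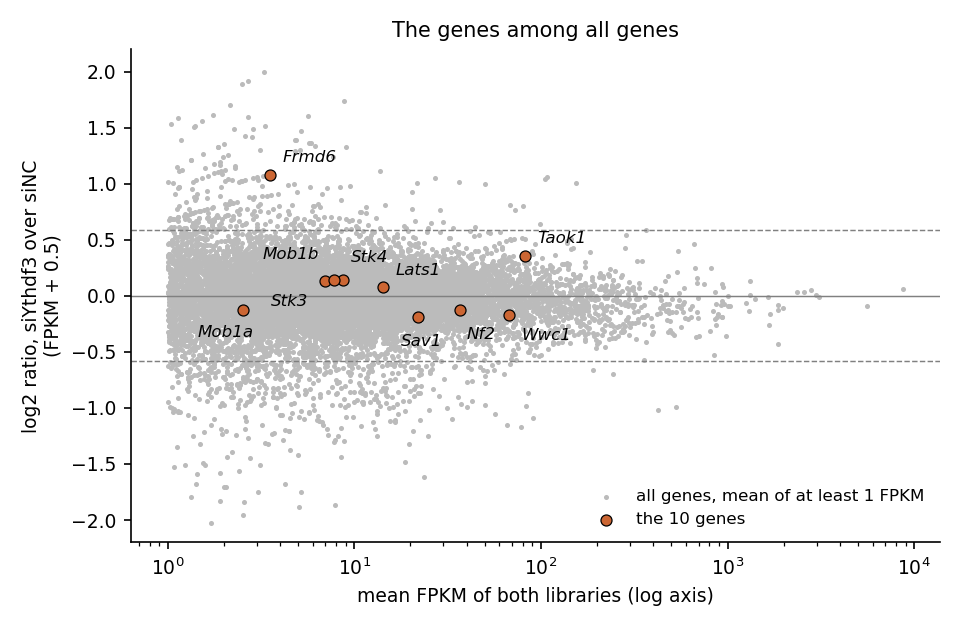
Log2 ratio of siYthdf3 over siNC, on FPKM plus 0.5, against the mean FPKM of both libraries (log axis) for all genes whose mean reached 1 FPKM (grey) and the 10 genes (orange). Dashed lines mark 1.5-fold, 26 genes lie outside the axis limit of 2.2, and Frmd6 is the 1 of the 10 genes beyond a dashed line.

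Willin belongs to a family of FERM domain proteins, and the Frmd relatives looked up did not differ to that extent. Other Frmd genes were not looked up. Of Frmd3, Frmd4a, Frmd4b and Frmd5, the log2 ratios were 0.02, 0.05, 0.11 and 0.00. Frmd6 took 3.91% of the summed FPKM of these genes and itself in siNC and 8.56% in siYthdf3. It was the lowest of them in siNC and stood above Frmd3 alone in siYthdf3. Relative to the merlin gene Nf2, Frmd6 was 5.17% of the pair's summed FPKM in siNC (interval 4.40% to 6.03%) and 12.4% in siYthdf3 (interval 11.4% to 13.4%). In the list of 12 ERM and FERM domain genes related to Nf2, which holds neither gene, 0 of 12 were at least 1.5-fold apart and the median log2 ratio was 0.04. The widest differences there were Epb41l2 at -0.41, Epb41l1 at 0.27, Epb41l5 at -0.20 and Epb41 at 0.20.

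Frmd6 and Sav1 both lie on chromosome 6, with annotated starts 846 kilobases apart, and they had the highest and the lowest log2 ratio of the 10 genes. Between them lay 5 rows, of which 3 reached a mean of 1 FPKM, at log2 ratios from 0.04 to 0.18. Within 1000 kilobases of the Frmd6 start there were 16 other rows at that level, from -0.24 for Psma3, a proteasome subunit, to 0.74 for Snord45l1. Snord45l1 was the 1 row of the 16 at least 1.5-fold apart. It lies inside Frmd6 on the other strand and rested on 1 and 3 reads. The rest of these 16 rows lay within 1.5-fold, among them the Hippo kinase gene Map4k5 at 0.20. Rows in the window whose mean was under 1 FPKM were not counted.

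**Figure D4:**
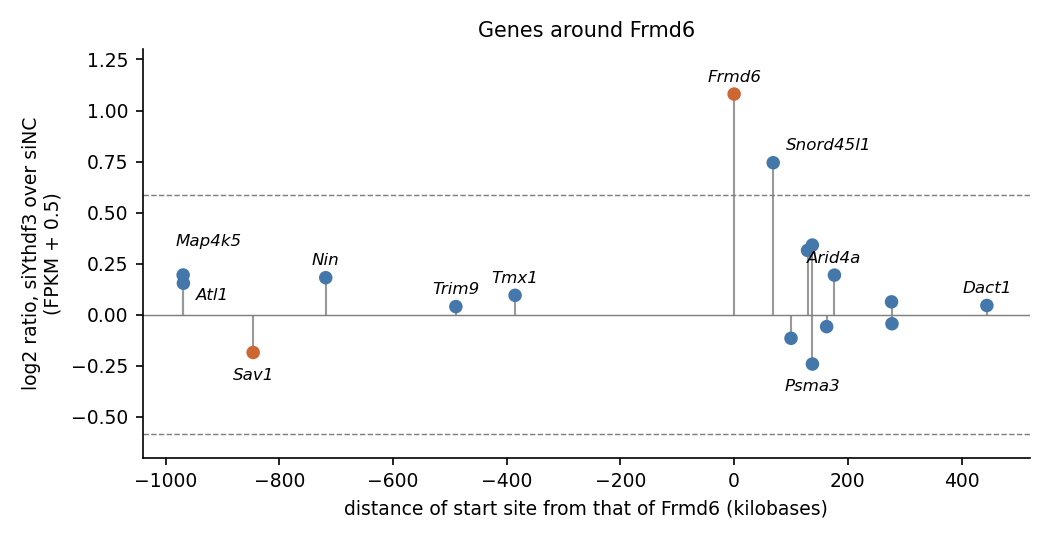
Log2 ratio of siYthdf3 over siNC, on FPKM plus 0.5, for genes whose mean reached 1 FPKM, against the distance of their start from that of Frmd6 in kilobases. Frmd6 and Sav1 are in orange, dashed lines mark 1.5-fold, and beside Frmd6 the one point beyond them is Snord45l1, on 1 and 3 reads.

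The promoters of Frmd6 and Sav1 are shown because this pair had the most different ratios of the 10 genes. The sequences are from RefSeq (build GRCr8) and run from 250 bases before to 50 bases after the annotated start, 5′ to 3′ on the strand of the gene. Frmd6 is at chr6:95081736-95082035 on the plus strand and Sav1 at chr6:94236049-94236348 on the minus strand. Capitals mark GGGCGG, the core of sites for Sp family factors, and GGAATG, the core of TEAD sites, on both strands.
Frmd6: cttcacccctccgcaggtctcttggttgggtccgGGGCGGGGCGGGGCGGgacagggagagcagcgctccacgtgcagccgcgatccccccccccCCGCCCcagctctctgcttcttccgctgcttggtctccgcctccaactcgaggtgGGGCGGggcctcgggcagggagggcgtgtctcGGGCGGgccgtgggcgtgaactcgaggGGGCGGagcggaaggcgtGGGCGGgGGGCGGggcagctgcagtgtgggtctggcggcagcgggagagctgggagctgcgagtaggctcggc
Sav1: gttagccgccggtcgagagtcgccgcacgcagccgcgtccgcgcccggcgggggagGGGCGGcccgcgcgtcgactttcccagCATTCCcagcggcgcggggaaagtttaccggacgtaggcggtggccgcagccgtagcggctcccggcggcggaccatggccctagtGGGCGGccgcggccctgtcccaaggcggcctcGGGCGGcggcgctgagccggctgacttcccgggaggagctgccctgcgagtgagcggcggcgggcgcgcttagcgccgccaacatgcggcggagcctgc

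Of the 10 genes, 9 had a promoter in the RefSeq table. All 9 held GGGCGG, as did 33.1% of 33469 promoters in the table. The Frmd6 promoter held 9 matches, some of them overlapping, and 0.146% of all promoters held 9 or more. The next of the genes was Stk4 with 5 matches, and Sav1 had 3. GGAATG was in 2 of the 9, Sav1 (its first base 167 bases before the annotated start) and Mob1b (189 bases before it), and in 14.2% of all promoters. It was not among the letters of the Frmd6 window. TGANTCA, the core of AP-1 sites, was in Stk4, and in 7.33% of all promoters. The windows of the 9 genes were rich in CG dinucleotides, with 17 to 49 of them (30 for Frmd6) against a median of 7. The shares above are over all promoters, and none was taken among promoters of like CG content. These counts describe the letters, and binding was not measured here.

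The other genes of the pathway were taken from lists, leaving the 10 genes out. Of 64 genes whose mean reached 1 FPKM, from 70 found, 0 were at least 1.5-fold higher in siYthdf3 and 4 at least 1.5-fold lower. Over all 13172 genes these shares were 2.41% and 3.95%, so counts this small are not far from those shares. The median log2 ratio of the 64 was -0.01. The 4 lower genes were Wwtr1, Tead2, Ajuba and Crb2, and none of them is a kinase gene.

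Of 11 other kinase genes, 0 were at least 1.5-fold apart, with a median of 0.09. Stk38l, a kinase related to LATS, was at -0.32, and the MAP4K family genes Map4k3, Map4k5 and Tnik, which act alongside MST kinases, at 0.27, 0.20 and 0.19. Of 22 genes of scaffolds, polarity and junctions, 2 were at least 1.5-fold lower, with a median of -0.04. Ajuba, a LIM protein that binds LATS, was at 1.77 FPKM against 3.70 FPKM in siNC (log2 ratio -0.89), and Crb2, an apical polarity protein, at 1.02 FPKM against 1.94 FPKM (-0.69). Ptpn14, a phosphatase that binds YAP, was at 0.44 and Wtip, a relative of Ajuba, at -0.43.

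The STRIPAK complex is a phosphatase that removes the activating phosphate of MST kinases. Of 15 of its genes 0 were at least 1.5-fold apart, with a median of 0.03. The largest differences were those of Stk24, a kinase related to MST1, at 0.46, Cttnbp2nl at 0.26, the striatin gene Strn at 0.25 and Sike1 at 0.19. Of 10 genes that anchor or degrade YAP and TAZ, 0 were at least 1.5-fold apart, with a median of -0.02. The 14-3-3 gene Ywhah was at 0.43 and Ywhaq at -0.09, the ubiquitin ligase gene Btrc at 0.28 and the casein kinase gene Csnk1e at 0.08.

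Among 6 genes of YAP, TAZ and their partners, 2 were at least 1.5-fold lower in siYthdf3. They were Wwtr1, which encodes TAZ, at -0.96 and Tead2 at -0.80. Tead3 was at -0.46, Vgll4, a repressor of TEAD, at 0.16, and Yap1 at 0.12. Beside the log2 ratio of Wwtr1, those of the kinases Stk3, Stk4, Lats1 and Lats2 were 0.13, 0.14, 0.07 and 0.09. Phosphorylation, through which the kinases act on TAZ, was not measured.

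**Figure D5:**
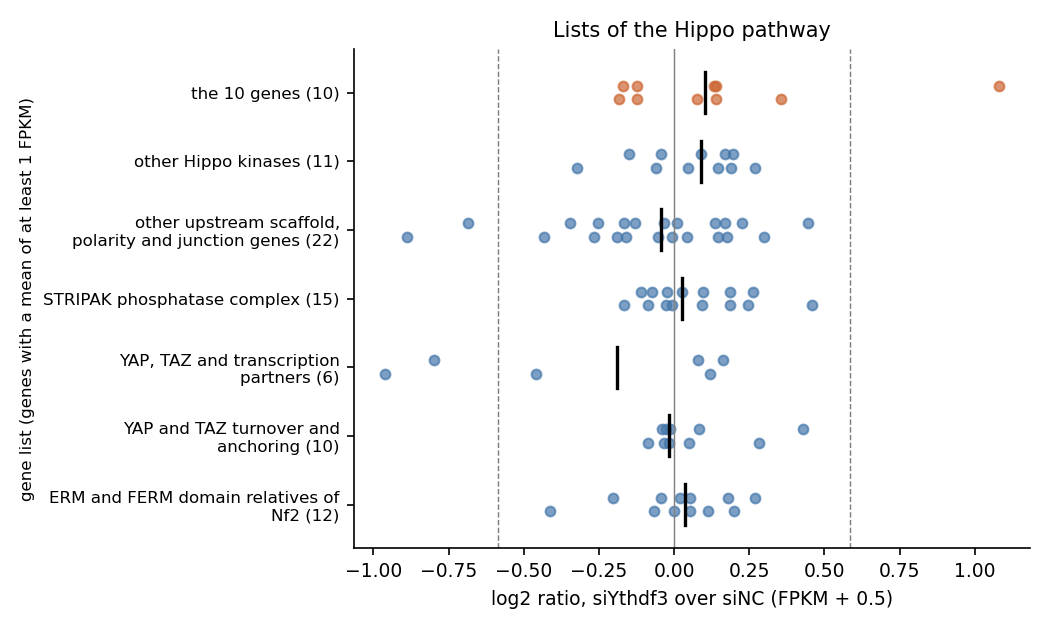
Log2 ratio of siYthdf3 over siNC, on FPKM plus 0.5, for the 10 genes (orange) and the other pathway lists (blue), each point 1 gene whose mean reached 1 FPKM; the number of genes stands in parentheses. Black bars are medians and dashed lines mark 1.5-fold, with Frmd6 as the 1 gene beyond the upper line and Wwtr1, Tead2, Ajuba and Crb2 beyond the lower one.

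Markers of cell types differed between the libraries too, and their part in the values above was not tested. Sums are over all members found, counts over those whose mean reached 1 FPKM. In bulk RNA, fewer cells of a type and less RNA per cell cannot be told apart. Of 12 cycling cell markers 11 were at least 1.5-fold lower in siYthdf3, and their summed level was 210 FPKM against 387 FPKM in siNC (Top2a at -1.15). Of 10 radial glia and progenitor markers 4 were at least 1.5-fold lower, with sums of 1395 and 2071 FPKM (Vim at -0.99, Fabp7 at -0.36). Of 10 astrocyte markers 3 were higher and 1 lower by that measure, with sums of 264 FPKM in siYthdf3 and 193 FPKM in siNC. Gfap, an astrocyte filament gene, accounted for that difference in the sum, with 141 FPKM against 68.2 FPKM in siNC. Without it the other 9 summed to 123 FPKM in siYthdf3 against 124 FPKM. The median log2 ratio of the 10 was -0.02, with 5 above 0 and 5 below, and Slc1a3 was at -0.04. Of 10 neuronal markers 0 were 1.5-fold apart, with sums of 1147 and 1002 FPKM.

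Of 6 pericyte, fibroblast and meningeal markers whose mean reached 1 FPKM, 0 were at least 1.5-fold higher by log2 ratio and 3 at least 1.5-fold lower. The log2 ratios of 2 were above 0, Myh11 at 0.57 and Acta2 at 0.28, and those of 4 below. Without the added 0.5 FPKM the ratio of Myh11 was 1.53 (interval 1.38 to 1.70). The sum of the list, dominated by Acta2 at 147 and 121 FPKM, was 161 FPKM in siYthdf3 and 136 FPKM in siNC. Oligodendrocyte lineage markers summed to 23.3 and 38.4 FPKM, with 3 of 7 lower (Olig2 at -0.82 and Olig1 at -0.77). Microglia markers summed to 3.68 and 7.61 FPKM, with 2 of 3 lower. These were Tyrobp at -1.71, on 27 reads in siNC and 8 in siYthdf3, and Aif1 at -0.72, on 73 and 56. The other, P2ry12, went the other way, at 0.36 on 41 and 87 reads, and its interval included 1. The 6 endothelial markers summed to under 1 FPKM in each library. Cx3cr1 of the microglia list was listed at 0 in siYthdf3, and the fibroblast marker Lum at 0 in siNC.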

How the data were processed

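Messenger RNA libraries of both groups were made from 1 ug of RNA with identifiers of 12 random bases and read as pairs of 150 bases, per the labels' protocols. The submitters' processing notes name STAR 2.7.6a, StringTie 2.1.4, edgeR 3.40.2, fastp 0.23.2, Subread 1.5.1 and featureCounts. Genome build, annotation, use of strand and collapsing by identifier: none is given in the sources used here. The authors deposited FPKM values per gene, with gene lengths, per the file headers. Multiplied by length, 100% of the values were whole multiples of 1 step per library, within 0.05 of a read, and these multiples are the reads given. A count of 0 allows up to 3 reads, which for 1 kilobase is 0.195 FPKM (siNC) or 0.133 FPKM (siYthdf3).

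Log2 ratios took a pseudocount of 0.5 FPKM, plain ratios took none, and calls took genes whose mean reached 1 FPKM. Calls are by size of the log2 ratio (1.5-fold and 2-fold), since 1 library per group allows no test. Clopper-Pearson intervals were set on the siYthdf3 share of a gene's reads or a gene's share of a pair's reads, and exact Poisson intervals on levels. They cover counting error only. The procedure was run on simulated reads that held counting error alone, the same assumption as the intervals. That run cannot say how far cultures or library preparations differ. The 10 genes and the lists were chosen with earlier results of these data known. Of 84 pathway symbols 82 were found, and of 73 marker symbols 71. Named were the 10 genes, Ythdf3, Lats2, Yap1, Wwtr1, up to 4 genes per pathway list with the largest differences, any pathway list gene 1.5-fold apart, and up to 2 abundant markers per cell type. Pcna, which this rule takes, and the endothelial markers are given only in sums. Taok2, Taok3, Wwc2, the Frmd relatives, the chromosome 6 neighbours, Tomm34, P2ry12, Cx3cr1 and Lum were added after their values were seen. With 2 libraries, likeness of pattern between genes was not assessed. The scripts ran in Python 3.11.15 (scipy 1.17.1, pandas 2.3.3, numpy 2.4.6, matplotlib 3.10.9).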

Additional observations from a re-analysis of the deposited data

How the results depend on the processing

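Alternatives were pseudocounts of 0.1 and 1 FPKM, TPM, centring on the median of all genes, removal of a length trend, no filter on low values, summed rows per symbol and 99% intervals. The number of the 10 genes at least 2-fold apart was 0 with a pseudocount of 1 FPKM and 1 under the other alternatives run, and 1 gene was at least 1.5-fold apart under each. Frmd6 ran from 0.95 to 1.23 on the log2 scale and Taok1 from 0.35 to 0.41. All 10 genes kept their sign in the 60 values computed. A change of pseudocount cannot reverse a sign, and summing rows changes nothing where each symbol has 1 row. Only TPM, centring and removal of the length trend could have reversed one. The median of the 10 was 0.16 after rescaling to TPM and 0.09 without the length trend. Intervals excluding 1 numbered 5 at 99% and 6 at 95%. Over all genes, 837 were at least 1.5-fold apart, and 1667 without the filter on low values. No paired analysis was possible because each group has 1 library. Depth limits the genes with few reads, among them Mob1a with 184 and 244 and Frmd6 with 152 in siNC.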
